A study of Homo sapiens with 6 samples.

Results

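The 44 genes described here encode the protein kinases of the MAP kinase cascade, taken tier by tier: 5 MAP4Ks, 17 MAP3Ks (ARAF and BRAF included), 7 MAP2Ks, 12 MAPKs (NLK included) and 3 MAPKAPKs. The list was drawn up by gene family, with earlier results of these data known, and used no measured value as a criterion. Each symbol matched 1 Ensembl identifier among the 61661 identifiers in the table, and 42 of them had enough reads to be tested, out of 17686 genes tested in all. MAP2K6 (at most 1 read in a library) and MAPK10 (at most 2 reads) were not tested. The kinases were measured by RNA-seq of K562 cells, a human cell line derived from a chronic myeloid leukemia that had reached blast crisis, in 3 groups of 2 libraries each. shCTR cells carried a lentiviral vector with a nonsense sequence, shMETTL3 cells carried a lentiviral shRNA against METTL3, driven by the U6 promoter, and shMETTL14 cells carried an shRNA against METTL14, whose vector and sequence are not given in the sources used here. According to the methods, the shCTR and shMETTL3 cells were GFP-marked, puromycin-selected stable lines, with a single METTL3 shRNA sequence, so an effect of METTL3 loss and another effect of that shRNA cannot be told apart. Nothing in the labels says that the 2 libraries of a group came from separate cultures, so every p-value measures the spread between these libraries, which may be technical.

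MAP kinase cascades relay signals from receptors and stresses by successive phosphorylation. MAP4Ks can activate MAP3Ks, a MAP3K phosphorylates a MAP2K, the MAP2K phosphorylates a MAPK on a threonine and a tyrosine of its activation loop, and the MAPK acts on transcription factors and on further kinases such as the MAPKAPKs. The ERK branch is best known for growth and differentiation signals, and the JNK and p38 branches for stress and cytokine responses. In K562 cells the BCR-ABL1 fusion kinase feeds the RAF, MEK and ERK branch, and p38 and ERK activity have been tied to erythroid and megakaryocytic differentiation. METTL3 and METTL14 form the methyltransferase that places N6-methyladenosine (m6A) on mRNA. All values below are mRNA levels and say nothing of kinase activity or phosphorylation.

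The MAPK branches differ in the codons of the activation loop, and these are shown because the branch of a kinase decides how its values are grouped below. The 27 bases around the loop are written 5′ to 3′ on the coding strand from GENCODE release 29 (GRCh38), and capitals mark the threonine codon, the middle codon and the tyrosine codon.
MAPK3: ggcttcctgACGGAGTATgtggctacg
MAPK7: tacttcatgACTGAGTATgtggccacg
MAPK8: tttatgatgACGCCTTATgtagtgact
MAPK9: ttcatgatgACCCCTTACgtggtgaca
MAPK10: ttcatgatgACTCCATATgtggtgaca
MAPK11: gaggagatgACCGGCTATgtggccacg
MAPK12: agtgagatgACTGGGTACgtggtgacc
MAPK13: gccgagatgACTGGCTACgtggtgacc
MAPK14: gatgaaatgACAGGCTACgtggccact
MAPK3 (ERK1) and MAPK7 (ERK5) carry a glutamate codon in the middle, the JNK genes MAPK8, MAPK9 and MAPK10 a proline codon, and the p38 genes MAPK11, MAPK12, MAPK13 and MAPK14 a glycine codon. The stretch lies in exon 4 of 9 in MAPK3 (chr16:30118086-30118112, minus strand), exon 4 of 7 in MAPK7 (chr17:19380855-19380881, plus strand), exon 5 of 11 in MAPK8 (chr10:48420242-48420268, plus strand), exon 6 of 12 in MAPK9 (chr5:180249025-180249051, minus strand) and exon 8 of 15 in MAPK10 (chr4:86101104-86101130, minus strand). In the p38 genes it lies in exon 7 of 12, at chr22:50266989-50267015 (minus strand) in MAPK11, chr22:50256140-50256166 (minus strand) in MAPK12 and chr6:36075881-36075907 (plus strand) in MAPK14. MAPK13, whose higher level in shMETTL3 cells is given below with its limits, carries it at chr6:36136689-36136715 (plus strand).

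GGACT is the best-known sequence context of m6A. It is shown for the members whose calls held under every alternative setting, with 10 bases on either side of the first GGACT whose flanks lie in the same exon, in the coding sequence of the longest GENCODE coding transcript and GGACT in capitals.
MAP3K1: ggctgccgcgGGACTgctgcgggag
MAP3K3: taaagctgggGGACTttggggccag
MAP3K10: tcaagatcacGGACTtcggcctcgc
MAP4K4: cagctggacaGGACTgtggggcgga
These stretches lie in exon 1 of 20 of MAP3K1 (chr5:56815687-56815711), exon 16 of 17 of MAP3K3 (chr17:63692275-63692299), exon 2 of 10 of MAP3K10 (chr19:40198423-40198447) and exon 7 of 31 of MAP4K4 (chr2:101831741-101831765), all on the plus strand. NLK, the other such member, has 0 GGACT in its coding sequence of 1584 bases. Untranslated regions were not searched for any gene. The study places m6A mainly at the stop codon and in the untranslated region that follows it. Searched on the sense strand only, since the mark is placed on mRNA, GGACT occurred in the coding sequence of 36 of the 42 tested members (85.7%), against 9425 of 12481 tested genes with a coding sequence (75.5%), and the median density was 1.21 per kilobase against 0.984. The median coding sequence of the members was longer (1845 against 1422 bases). A GGACT is a string of letters here, and m6A itself was not measured in these libraries.

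The libraries held between 19292574 and 20115304 reads in genes. METTL3, the target of its shRNA, was at 90.5 and 90.3 CPM (reads scaled to a common library size, with edgeR's TMM factors) in shCTR, 52.5 and 46.7 in shMETTL3 and 88.1 and 76.4 in shMETTL14 cells. METTL14 was at 33.2 and 34.2 CPM in shCTR, 38.3 and 35.4 in shMETTL3, and 19.1 and 20.6 in shMETTL14 cells, so each target was lowest in the libraries named for it. The summed level of 9 erythroid markers was 1722 to 1736 CPM in shCTR, 1902 to 1907 in shMETTL3 and 1730 to 1748 in shMETTL14 cells. Of 5 monocyte and granulocyte markers, CD14, MPO and ELANE had at most 3 reads in any library, and the summed level of the 5 was 42.7 to 44.4 CPM in shCTR, at most 17.4 in shMETTL3 and 60.5 to 66.0 in shMETTL14 cells. Nearly all of it was LYZ, with 16.5 and 15.4 CPM in shMETTL3 libraries. The 4 T cell markers summed to 3.39 to 3.97, 5.19 to 6.13 and 4.54 to 5.04 CPM in the same order, with 2 of them at most at 3 reads, and the 3 B cell markers to 2.51 to 2.63, 3.49 to 3.72 and 1.73 to 2.81, with 1 at most at 3 reads. The 5 fibroblast and epithelial markers, mostly EPCAM, summed to 57.2 to 58.2, 42.8 to 43.7 and 44.4 to 45.8 CPM, with 2 at most at 3 reads. Marker levels therefore moved with the groups, and their part in the kinase results was not tested. In bulk RNA, fewer cells of a type and less RNA per cell cannot be told apart.

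To compare genes with each other, CPM was divided by the length of all exons in kilobases. On this scale the 42 tested kinases ran from 0.0646 CPM per kb (MAP3K9, a mixed-lineage kinase) to 30.2 (MAP2K2, the ERK kinase MEK2) in shCTR cells, with a median of 5.64. The tiers differed in their medians, with 5.57 CPM per kb for the MAP4Ks, 4.08 for the MAP3Ks, 7.75 for the MAP2Ks, 14.2 for the MAPKs and 22.0 for the MAPKAPKs. The highest member of each tier was MAP4K4 (17.2 CPM per kb), ARAF (20.6), MAP2K2 (30.2), NLK (24.3) and MAPKAPK2 (22.4). MAPKAPK2 and MAPKAPK3 (22.4 and 22.0 CPM per kb, SD 1.59 and 2.65, n = 2) did not differ beyond their spread. MAPK3 and MAPK6 were close on this scale (16.6 and 16.4 CPM per kb) but not per kilobase of the longest transcript (23.8 and 19.6). At the low end, MAP4K1 had 11 to 39 reads per library and MAP3K9 11 to 24, so their fold changes are imprecise.

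**Figure D1:**
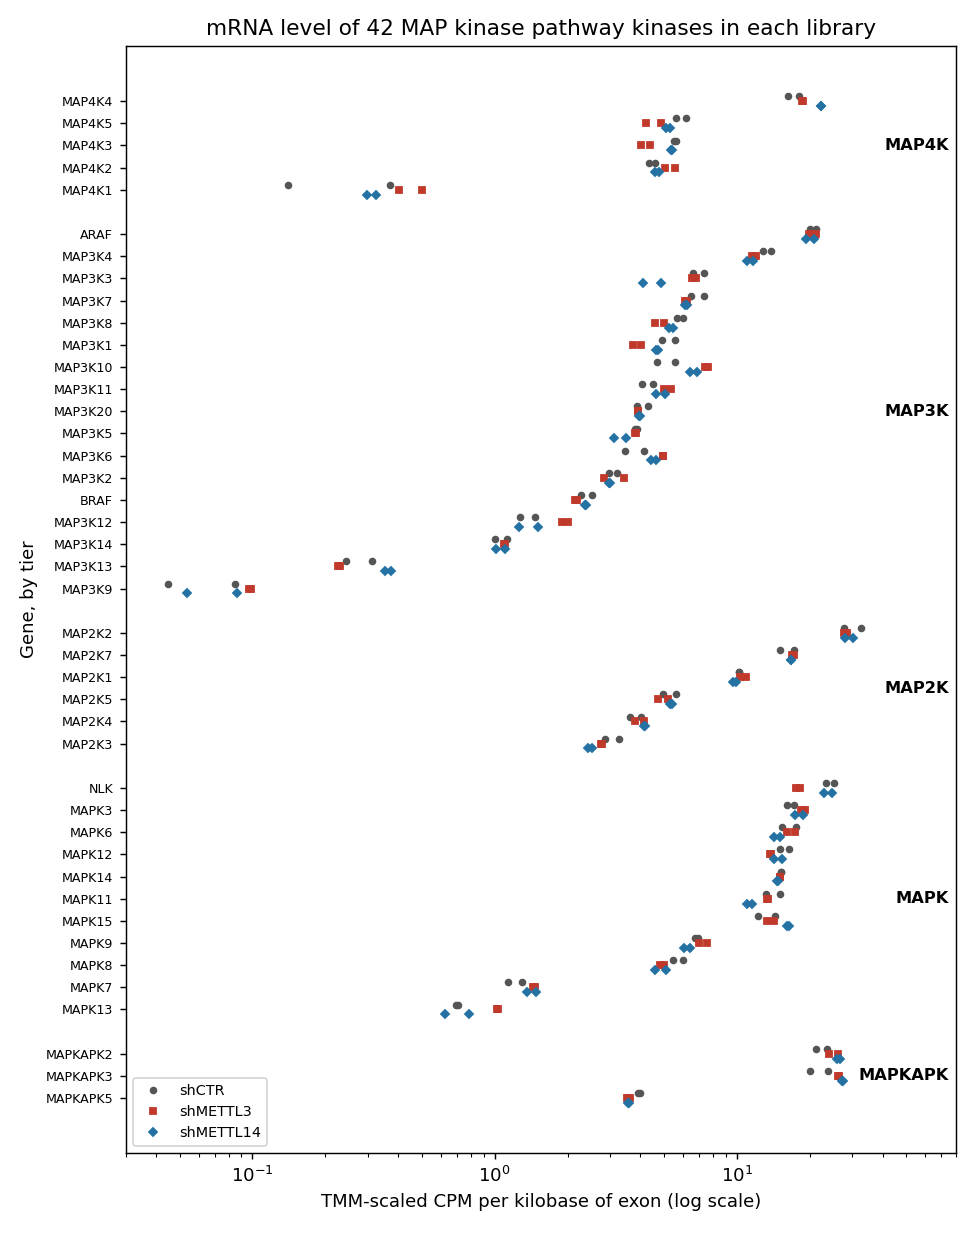
TMM-scaled CPM per kilobase of exon (log axis) of the 42 tested kinases in each of the 6 libraries, by tier and ordered by the shCTR level. Grey circles are shCTR, red squares shMETTL3 and blue diamonds shMETTL14 libraries. The levels run from MAP2K2 at 30.2 to MAP3K9 at 0.0646 CPM per kb in shCTR cells, and the 2 shMETTL14 libraries of MAP3K3 stand apart on the low side.

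Summed over a tier, the per-length level of the MAPKAPKs was 45.3 and 51.3 CPM per kb in shCTR, 53.8 and 56.0 in shMETTL3 and 56.6 and 57.7 in shMETTL14 libraries, higher in every knockdown library than in both shCTR libraries. The MAPKs summed to 129.2 and 131.5 CPM per kb in shCTR, 124.5 and 123.8 in shMETTL3 and 126.3 and 127.4 in shMETTL14 libraries. The MAP3K sums were 88.5 and 88.0, 87.4 and 88.3, and 82.5 and 84.8 CPM per kb in the same order, lowest in the shMETTL14 libraries. The MAP4K sums were 34.4 and 32.5, 34.1 and 32.3, and 37.8 and 37.8 CPM per kb, highest in the shMETTL14 libraries. The MAP2K sums overlapped between all groups, from 65.0 to 72.6 CPM per kb. These sums are descriptions without a test.

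The comparison of shMETTL3 with shCTR cells asks which kinases of the cascade changed in mRNA level when METTL3 was knocked down, a question the study raised for MAPK signaling as a whole. Kinases were called in both directions, in the MAP4K, MAP3K, MAPK and MAPKAPK tiers. Of the 42 tested members, 11 (26.2%) passed an adjusted p of 0.05 in edgeR, against 16.5% of all genes tested. Higher were 7, namely MAP4K2, MAP3K6, MAP3K10, MAP3K11, MAP3K12, MAPK13 and MAPKAPK3, with log2 fold changes between 0.25 and 0.56, and lower were 4, MAP4K3, MAP4K5, MAP3K1 and NLK, between -0.44 and -0.38. Among all genes 8.73% were called higher and 7.73% lower. The median log2 fold change of the members was 0.00787, against 0.00299 over all genes, and their median size of change was 0.16 against 0.175. The groups did not overlap for 29 members, where 56.0% of all genes do not overlap.

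The comparison of shMETTL14 with shCTR cells uses the same control libraries and is set beside the first one, not counted as independent of it. Of the 42 members, 8 (19.0%) were called, against 6.69% of all genes. MAP4K4, MAP3K10, MAPK15, MAPKAPK2 and MAPKAPK3 were higher, with log2 fold changes between 0.24 and 0.37, and MAP3K3, MAP3K4 and MAPK11 were lower, between -0.64 and -0.23. Over all genes, 3.43% were called higher and 3.26% lower. The median log2 fold change of the members was -0.03, against -0.00014 over all genes, with a median size of 0.136 against 0.141. For 28 members the groups did not overlap, against 48.9% of all genes. MAP3K10 and MAPKAPK3 were called in both knockdowns, and 19 members were called in at least 1 of the 3 comparisons. Calls shared between comparisons were not counted over all genes.

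The knockdowns were also compared directly, shMETTL3 against shMETTL14. Here 9 of 42 members (21.4%) were called, against 12.1% of all genes. MAP3K3, MAP3K12, MAPK9 and MAPK13 were higher in shMETTL3 cells, with log2 differences between 0.22 and 0.57, and MAP4K3, MAP4K4, MAP3K1, MAP3K13 and NLK were lower, between -0.67 and -0.25. Of all genes, 6.65% were called higher and 5.49% lower. The median log2 difference of the members was 0.03, against -0.00166 over all genes, and for 30 members the groups did not overlap, against 56.7% of all genes. No member was called in all 3 comparisons (0 of 42), and 23 were called in none, counts that were not made over all genes.

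**Figure D2:**
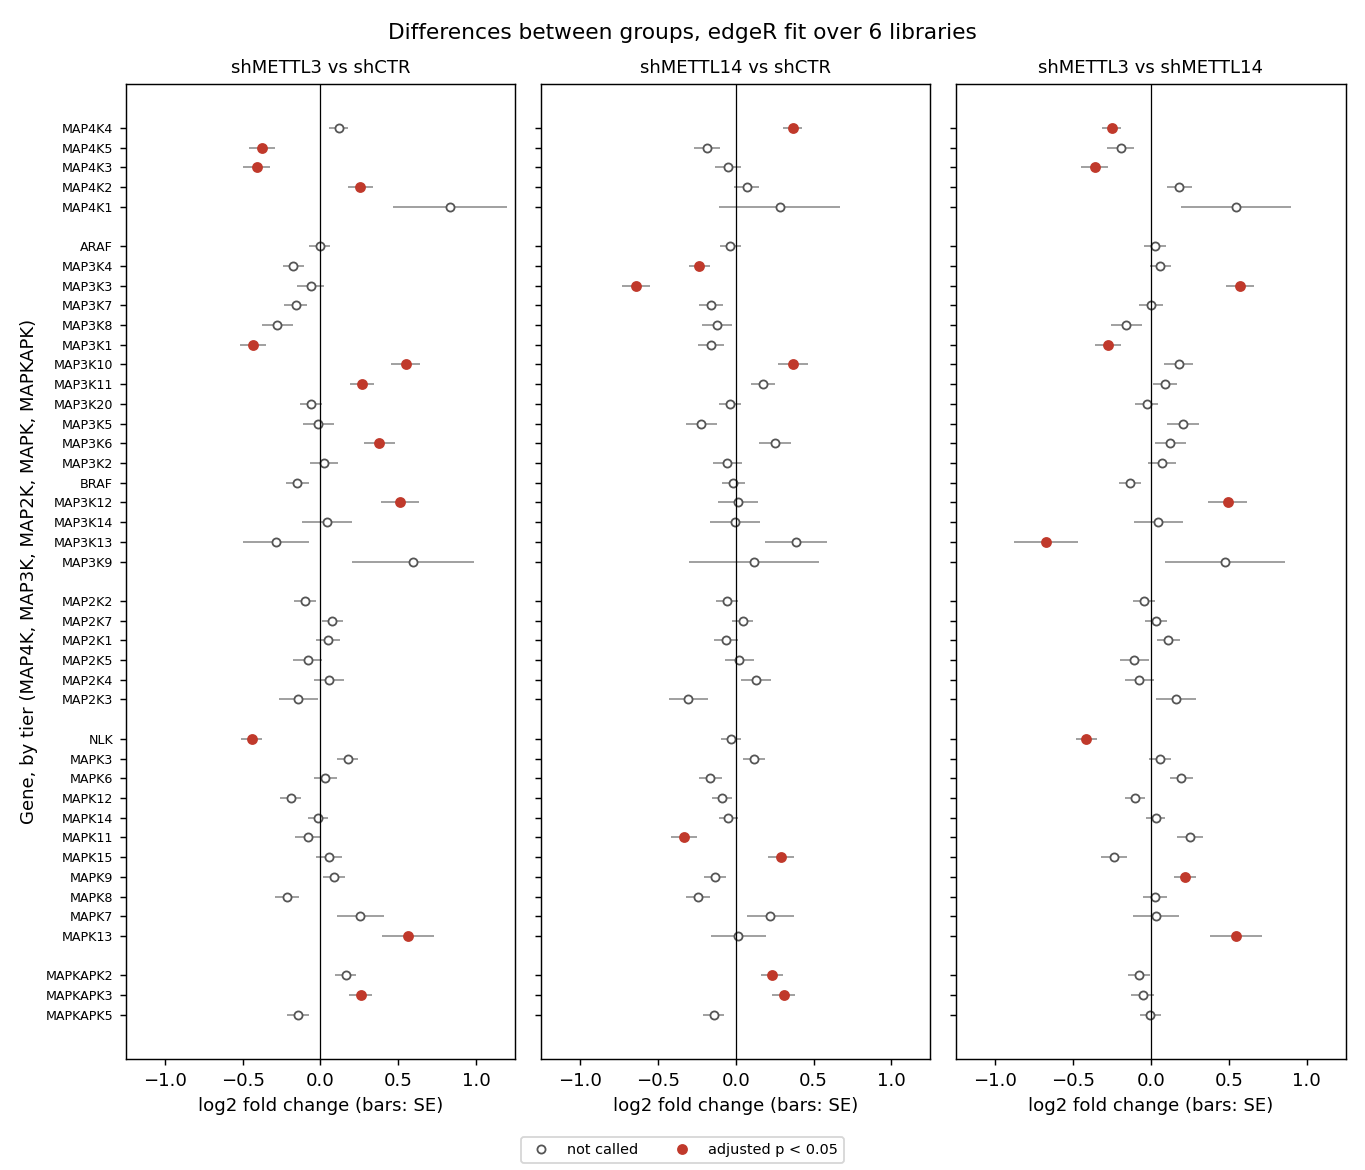
Log2 fold changes of the 42 tested kinases, by tier, for shMETTL3 against shCTR, shMETTL14 against shCTR and shMETTL3 against shMETTL14, from edgeR's fit over 6 libraries. Bars are standard errors, and filled red points passed the 0.05 threshold after adjustment for all tested genes. The 11, 8 and 9 red points lie on both sides of 0, and none of them is a MAP2K.

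The number of calls depended on single libraries, among the members as over all genes tested. Both counts were lowest when a knockdown library of the comparison was left out. For shMETTL3 against shCTR, 3 calls remained without shMETTL3-2 (MAP3K1, MAP3K10 and NLK) and 6 without shMETTL3-1, and the adjusted p of the lost calls lay between 0.0582 and 0.297. Without shCTR-1, 6 of the 11 remained with 3 others added, and without shCTR-2, 9 remained with 7 others added (MAP4K1, MAP3K4, MAP3K7, MAPK3, MAPK8, BRAF and MAPKAPK2). For shMETTL14 against shCTR, MAP4K4 and MAP3K3 alone remained without either shMETTL14 library (adjusted p of the 6 lost calls 0.0943 to 0.381), 3 remained without shCTR-1, and 5 without either shMETTL3 library, which enter the shared estimate of spread. For shMETTL3 against shMETTL14, MAP3K3 and NLK remained without every library of these groups, and the count of remaining calls was 2 without shMETTL3-2, 2 without shMETTL14-1, 4 without shMETTL3-1 and 4 without shMETTL14-2.

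MAP4Ks, relatives of yeast Ste20 that act at the top of the JNK cascade, went in different directions. MAP4K3 (GLK, a kinase of amino acid and immune receptor signaling) was at 34.1 and 33.5 CPM in shCTR, 26.5 and 24.4 in shMETTL3 and 32.9 and 32.5 in shMETTL14 libraries. The shMETTL3 libraries were the low ones, below all others. MAP4K3 fell in shMETTL3 cells, with a log2 fold change of -0.41 (SE 0.0839, edgeR adjusted p = 0.00216) against shCTR and -0.36 (SE 0.0841, adjusted p = 0.00662) against shMETTL14. Without shMETTL3-2 the first was -0.35 and no longer called (adjusted p = 0.0624).
MAP4K5 (KHS, close to MAP4K3 in sequence) was at 47.0 and 42.9 CPM in shCTR, 37.1 and 32.1 in shMETTL3 and 38.9 and 40.2 in shMETTL14 libraries. It fell in shMETTL3 cells (log2 fold change -0.38, SE 0.084, adjusted p = 0.00418). In shMETTL14 cells its log2 fold change was -0.18 (adjusted p = 0.21), and the groups did not overlap there either.
MAP4K2 (an activator of JNK after inflammatory signals) was at 33.0 and 35.2 CPM in shCTR, 42.7 and 38.7 in shMETTL3 and 36.4 and 35.2 in shMETTL14 libraries. It rose in shMETTL3 cells by 0.25 on the log2 scale (SE 0.0808, adjusted p = 0.0353), the weakest call of this comparison, lost in 9 of 13 alternative settings.

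MAP4K4 (HGK, a regulator of JNK signaling, cell shape and migration) was the most abundant MAP4K and had the most reads of all 44 genes, up to 5231 in a library. Its level was 217 and 195 CPM in shCTR, 225 and 222 in shMETTL3 and 266 and 266 in shMETTL14 libraries. Both shMETTL14 libraries were above all others. MAP4K4 (ENSG00000071054, chr2:101696850-101894689, plus strand) rose in shMETTL14 cells, with a log2 fold change of 0.37 (SE 0.0622, adjusted p = 0.000843), between 0.29 and 0.44 with each library left out and called every time. In shMETTL3 cells it was 0.12 (SE 0.0624, adjusted p = 0.223), and the direct difference of -0.25 was called (adjusted p = 0.0099). MAP4K4 made up 52.8% and 50.3% of the summed per-length level of the 5 MAP4Ks in shCTR, 55.1% and 57.6% in shMETTL3 and 58.8% and 58.8% in shMETTL14 libraries. MAP4K1 (HPK1, a blood cell kinase) ran from 0.557 to 1.99 CPM over the 6 libraries, and its log2 fold change of 0.83 in shMETTL3 cells was not called (SE 0.366, adjusted p = 0.13).

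MAP3Ks, the tier that receives most upstream inputs, held the largest called changes in shMETTL14 against shCTR and between the knockdowns. MAP3K1 (MEKK1, an activator of JNK that also has a ubiquitin ligase domain) was at 42.9 and 37.8 CPM in shCTR, 30.9 and 28.8 in shMETTL3 and 35.9 and 36.4 in shMETTL14 libraries. The shMETTL3 libraries were lowest and the shMETTL14 libraries between them and shCTR. MAP3K1 (ENSG00000095015, chr5:56815574-56896152, plus strand) fell in shMETTL3 cells by 0.43 on the log2 scale (SE 0.0845, adjusted p = 0.00149), and was called with each library left out (-0.53 to -0.34, adjusted p at most 0.0458). In shMETTL14 cells its log2 fold change was -0.16 (adjusted p = 0.291).

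The mixed-lineage kinases activate JNK and, in part, p38. MAP3K10 (MLK2) was at 21.3 and 25.5 CPM in shCTR, 33.6 and 34.7 in shMETTL3 and 31.1 and 29.2 in shMETTL14 libraries, so that all 4 knockdown libraries were above both shCTR libraries. MAP3K10 (ENSG00000130758, chr19:40191744-40215575, plus strand) rose in shMETTL3 cells (log2 fold change 0.55, SE 0.0939, adjusted p = 0.000493) and in shMETTL14 cells (0.37, SE 0.0949, adjusted p = 0.0233). The first call held in all 13 alternatives, and the second was lost in 5 of them, among them without shCTR-1 (0.24, adjusted p = 0.175) and without either shMETTL14 library.
The related MAP3K11 (MLK3) had more reads than MAP3K10, with 42.9 and 47.8 CPM in shCTR, 52.6 and 56.5 in shMETTL3 and 53.4 and 49.0 in shMETTL14 libraries. The shMETTL3 level was higher than in shCTR (0.27, SE 0.0782, adjusted p = 0.023). That call was lost in 6 of 13 alternatives, among them with DESeq2 (adjusted p = 0.0617), and the value was 0.19 without shCTR-1. In shMETTL14 cells the log2 fold change of MAP3K11 was 0.18 (edgeR adjusted p = 0.205).
MAP3K12 (DLK, a kinase of neuronal stress and axon injury) was at 10.1 and 11.7 CPM in shCTR, 15.1 and 15.997 in shMETTL3 and 10.1 and 12.0 in shMETTL14 libraries. It rose in shMETTL3 cells (0.51, SE 0.124, adjusted p = 0.00797) and was higher there than in shMETTL14 cells (0.49, adjusted p = 0.0112). Of its exon bases, 18.7% lie opposite exons of PCBP2, and whether the counting used strand is not given in the sources used here.
MAP3K13 (LZK, the closest relative of MAP3K12) was low, with 57 to 93 reads per library. Its levels were 3.09 and 3.92 CPM in shCTR, 2.90 and 2.84 in shMETTL3 and 4.73 and 4.44 in shMETTL14 libraries. The shMETTL3 libraries were below and the shMETTL14 libraries above both shCTR libraries. The log2 difference between the knockdowns was -0.67 (SE 0.204, adjusted p = 0.0343), while neither knockdown differed from shCTR by the test (-0.28 with adjusted p = 0.392, and 0.39 with adjusted p = 0.275). Within the pair MAP3K12 and MAP3K13, the share of MAP3K13 was 16.15% and 17.45% in shCTR, 10.8% and 10.1% in shMETTL3 and 22.9% and 19.0% in shMETTL14 libraries.

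MAP3K3 (MEKK3, which acts on the p38 and ERK5 branches and is needed in endothelial cells) had the largest called change from shCTR among the members. Its level was 40.4 and 44.6 CPM in shCTR, 41.5 and 39.9 in shMETTL3 and 24.99 and 29.6 in shMETTL14 libraries. The shMETTL3 libraries overlapped with shCTR, and both shMETTL14 libraries were below all others. MAP3K3 (ENSG00000198909, chr17:63622415-63696303, plus strand) fell in shMETTL14 cells, with a log2 fold change of -0.64 (SE 0.0899, adjusted p = 0.000128), or 0.643 of the shCTR level. In shMETTL3 cells it was -0.06 (SE 0.0865, adjusted p = 0.675, 95% interval -0.24 to 0.12). The direct difference was 0.57 (SE 0.0901, adjusted p = 0.000196), and both calls held with each library left out and in all other settings. Its close relative MAP3K2 (MEKK2) had log2 fold changes of 0.02 and -0.05 (adjusted p = 0.907 and 0.802), so the share of MAP3K3 in the pair, 67.3% and 71.2% in shCTR and 66.4% and 69.7% in shMETTL3, was 58.0% and 61.9% in shMETTL14 libraries. Of MAP3K3's exon bases, 6.58% lie opposite LIMD2.

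MAP3K4 (MEKK4, an activator of p38 and JNK) was at 104 and 96.2 CPM in shCTR, 90.4 and 87.3 in shMETTL3 and 83.1 and 87.4 in shMETTL14 libraries. Both knockdowns were below shCTR in every library. It fell in shMETTL14 cells (log2 fold change -0.23, SE 0.0672, adjusted p = 0.041), a call lost in 9 of 13 alternatives, and was at -0.17 in shMETTL3 cells (adjusted p = 0.0827).
MAP3K6 (ASK2, a partner of the redox-regulated ASK1) was at 20.5 and 17.1 CPM in shCTR, 24.4 and 24.5 in shMETTL3 and 23.0 and 22.0 in shMETTL14 libraries. Its level was raised in shMETTL3 cells (0.38, SE 0.102, adjusted p = 0.0144). That call was lost without shCTR-2, where the log2 fold change was 0.25 (adjusted p = 0.0965), and without either shMETTL3 library. ASK1 itself, MAP3K5, had log2 fold changes of -0.01 and -0.22 (adjusted p = 0.951 and 0.214).

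ARAF, the highest MAP3K per kilobase of exon, was at 70.9 and 74.8 CPM in shCTR, 70.1 and 75.0 in shMETTL3 and 68.5 and 73.9 in shMETTL14 libraries. All groups overlapped, and the log2 fold changes were -0.00558 and -0.03 with 95% intervals of -0.15 to 0.14 and -0.18 to 0.11. BRAF, the RAF kinase with the strongest activity toward MEK, was at -0.15 in shMETTL3 cells (adjusted p = 0.172) and -0.01 in shMETTL14 cells. Between ARAF and BRAF, the per-length share of ARAF ran from 88.8% to 90.6% over the 6 libraries. The other MAP3Ks that were called in no comparison were MAP3K2, MAP3K5, MAP3K7 (TAK1), MAP3K8 (TPL2), MAP3K9, MAP3K14 (NIK) and MAP3K20 (ZAK). In all, the MAP3Ks had 4 higher and 1 lower of 17 in shMETTL3 cells, 1 higher and 2 lower in shMETTL14 cells, and 2 higher and 2 lower in shMETTL3 against shMETTL14, where 8.73% and 7.73%, 3.43% and 3.26%, and 6.65% and 5.49% of all genes were called in these directions.

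**Figure D3:**
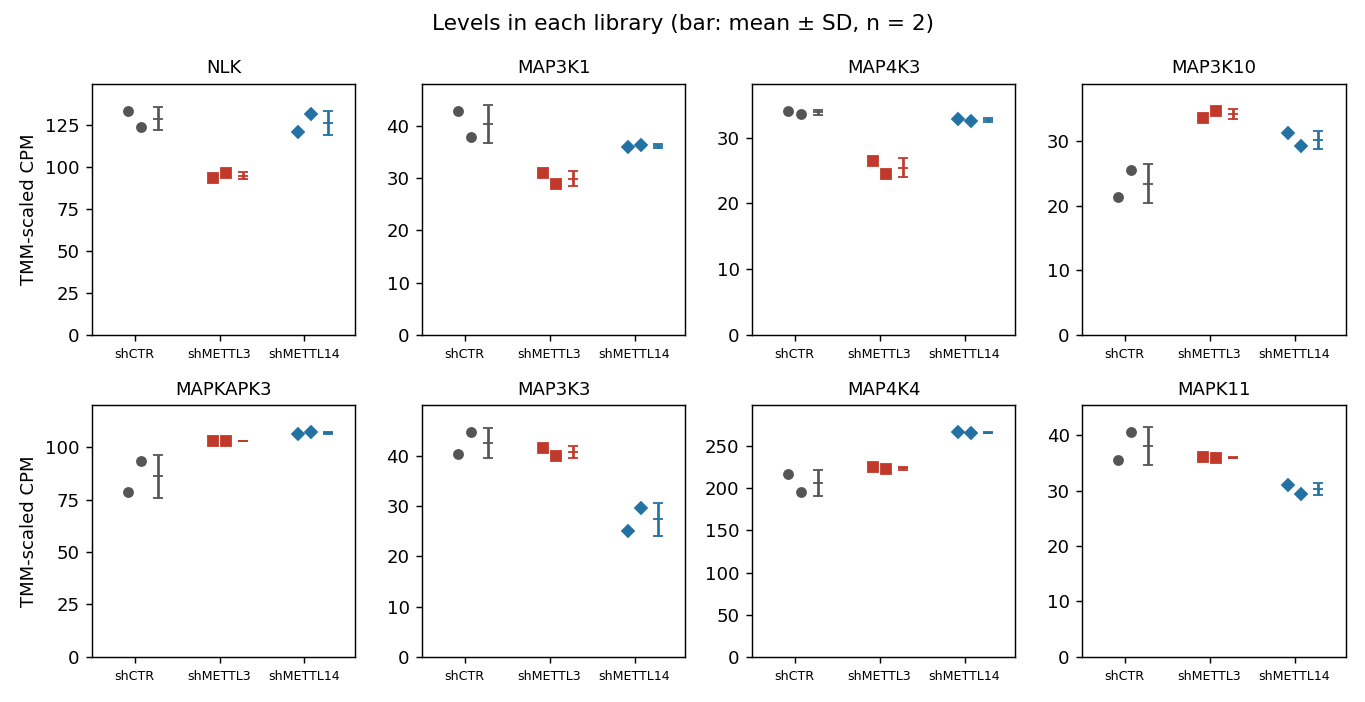
TMM-scaled CPM (axes from 0) of 8 kinases in each library, with the mean and SD (n = 2) beside the points. NLK, MAP3K1 and MAP4K3 were lowest in shMETTL3 libraries, MAP3K3 and MAPK11 lowest and MAP4K4 highest in shMETTL14 libraries, and MAP3K10 and MAPKAPK3 higher in all 4 knockdown libraries than in shCTR.

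MAP2Ks are the dual-specificity kinases in the middle of the cascade. edgeR called 0 of 6 in each comparison, where 16.5%, 6.69% and 12.1% of all genes were called, so that in a tier of 6 a count of 0 is near the background. DESeq2 also called 0 MAP2Ks, and at an unadjusted p under 0.05 there were 0, 1 (MAP2K3) and 0. MAP2K2 (MEK2) was at 145 and 171 CPM in shCTR, 146 and 149.8 in shMETTL3 and 147 and 158 in shMETTL14 libraries, and the shCTR libraries spanned the range of the others. Its log2 fold change was -0.10 in shMETTL3 cells (95% interval -0.25 to 0.05) and -0.06 in shMETTL14 cells (-0.21 to 0.10). The first value hung on the control libraries, with -0.21 without shCTR-1 (called, adjusted p = 0.0361) and 0.02 without shCTR-2, and it was -0.23 after the trend on GC content and length was removed (called, adjusted p = 0.00523).
MAP2K1 (MEK1) had log2 fold changes of 0.05 and -0.06, with 95% intervals from -0.11 to 0.21 and from -0.22 to 0.10, and made up 23.85% to 28.2% of the summed MEK1 and MEK2 level. MAP2K7 and MAP2K4, the JNK kinases, lay between 0.04 and 0.13. MAP2K3, a p38 kinase, was the tier's largest at -0.14 and -0.30 (adjusted p = 0.48 and 0.176, 95% interval in shMETTL14 cells -0.57 to -0.04). MAP2K6, the other p38 kinase of this tier, had 0 reads in 5 libraries and 1 in shMETTL3-2. MAP2K5, the ERK5 kinase, was at -0.08 and 0.02. The widest 95% interval of the tier in shMETTL3 cells, that of MAP2K3, ran from -0.41 to 0.12.

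NLK had the smallest adjusted p of the MAPKs in shMETTL3 cells. This kinase (nemo-like kinase, an atypical MAPK known for regulating Wnt and Notch signaling) was the most abundant MAPK per length. Its level was 133 and 124 CPM in shCTR, 93.2 and 96.2 in shMETTL3 and 121 and 131 in shMETTL14 libraries. The shMETTL3 libraries lay below all others, and the shMETTL14 and shCTR libraries overlapped. NLK (ENSG00000087095, chr17:28041737-28196381, plus strand) fell in shMETTL3 cells, with a log2 fold change of -0.44 (SE 0.0673, adjusted p = 0.000154), or 0.736 of the shCTR level. Against shMETTL14 the difference was -0.41 (SE 0.0674, adjusted p = 0.000299), and with each library left out these values lay between -0.50 and -0.39 and between -0.47 and -0.35, called each time. In shMETTL14 cells the log2 fold change was -0.03 (95% interval -0.17 to 0.11). None of the exon bases of NLK overlap an annotated exon of another gene.

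MAPK3 (ERK1) was at 59.1 and 62.9 CPM in shCTR, 67.6 and 70.1 in shMETTL3 and 68.7 and 63.6 in shMETTL14 libraries. Every knockdown library was above both shCTR libraries, but the changes of 0.17 (SE 0.07, adjusted p = 0.097) and 0.12 (SE 0.0702, adjusted p = 0.369) on the log2 scale did not pass the threshold. The first passed it without shCTR-2 (0.22, adjusted p = 0.0458) and with library size alone as scaling (0.23, adjusted p = 0.0298). MAPK7 (ERK5) was at 0.26 and 0.22 (adjusted p = 0.267 and 0.435).
The atypical MAPKs besides NLK were MAPK6 (ERK3) and MAPK15 (ERK8, tied to autophagy and genome stability). MAPK15 was at 37.2 and 44.03 CPM in shCTR, 43.5 and 40.8 in shMETTL3 and 49.3 and 50.1 in shMETTL14 libraries, and the shMETTL14 libraries were the highest. It rose in shMETTL14 cells (0.29, SE 0.0826, adjusted p = 0.039), a call lost in 8 of 13 alternatives, with 0.17 (adjusted p = 0.247) without shCTR-1. MAPK6 was at 0.03 and -0.16 (adjusted p = 0.825 and 0.212).

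In the JNK branch, MAPK8 and MAPK9 (JNK1 and JNK2, expressed in most tissues) were both present and MAPK10 (JNK3, mainly a brain and heart kinase) had 0 to 2 reads. MAPK9 was at 60.4 and 62.2 CPM in shCTR, 62.5 and 67.7 in shMETTL3 and 54.5 and 57.5 in shMETTL14 libraries. The shMETTL3 libraries were above and the shMETTL14 libraries below both shCTR libraries, and the knockdowns differed by 0.22 on the log2 scale (SE 0.0703, adjusted p = 0.0494), a call lost in 7 of 13 alternatives. Against shCTR the values were 0.09 (adjusted p = 0.434) and -0.13 (adjusted p = 0.311). MAPK8 was lower in every knockdown library than in both shCTR libraries, at 57.9 and 52.6 CPM in shCTR, 48.6 and 46.5 in shMETTL3 and 44.3 and 49.2 in shMETTL14. Its log2 fold changes of -0.22 and -0.24 did not pass the threshold (adjusted p = 0.0608 and 0.0687). Of the per-length JNK level, MAPK9 made up 53.0% and 56.1% in shCTR, 58.15% and 61.1% in shMETTL3 and 57.1% and 55.8% in shMETTL14 libraries.

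In the p38 branch, whose glycine codon is seen in the activation loops above, MAPK14, MAPK12 and MAPK11 held 33.3%, 34.3% and 30.9% of the summed level per kilobase of exon in shCTR cells (SD 1.62, 0.445 and 1.27, n = 2). Per length of the longest transcript the shares were 37.6%, 36.85% and 24.3% (SD 1.66, 0.636 and 1.1), with MAPK11 below the other two. MAPK13 held 1.52%. MAPK14 (p38 alpha, the main p38 of most tissues) was at 104 and 105 CPM in shCTR, 104 and 103 in shMETTL3 and 101 and 102 in shMETTL14 libraries. Its log2 fold changes were -0.02 (95% interval -0.14 to 0.11, adjusted p = 0.905) and -0.05 (95% interval -0.18 to 0.08, adjusted p = 0.734), the values of a gene that differed little between groups.
MAPK11 (p38 beta) was at 35.6 and 40.5 CPM in shCTR, 36.1 and 35.9 in shMETTL3 and 31.0 and 29.5 in shMETTL14 libraries. It fell in shMETTL14 cells (-0.33, SE 0.0845, adjusted p = 0.0218), and this was lost without shCTR-2 (-0.24, adjusted p = 0.0926) and without either shMETTL14 library. In shMETTL3 cells it was -0.08 (adjusted p = 0.555).
MAPK13 (p38 delta) was low, with 88 to 149 reads, at 5.06 and 4.96 CPM in shCTR, 7.38 and 7.43 in shMETTL3 and 4.48 and 5.66 in shMETTL14 libraries. Both shMETTL3 libraries stood above the rest. Its log2 fold change in shMETTL3 cells was 0.56 against shCTR (SE 0.168, edgeR adjusted p = 0.0255) and 0.55 against shMETTL14 (SE 0.167, adjusted p = 0.0372). These calls were lost in 6 and 5 of 13 alternatives, among them with DESeq2 (adjusted p = 0.112 and 0.169). The share of MAPK13 in the p38 level was 2.37% and 2.38% in shMETTL3 libraries. MAPK12 (p38 gamma) was at -0.19 in shMETTL3 cells, just short of the threshold (adjusted p = 0.0518). It shares 29.3% of its exon bases with HDAC10 on the same strand, so some of its reads may not be its own.

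**Figure D4:**
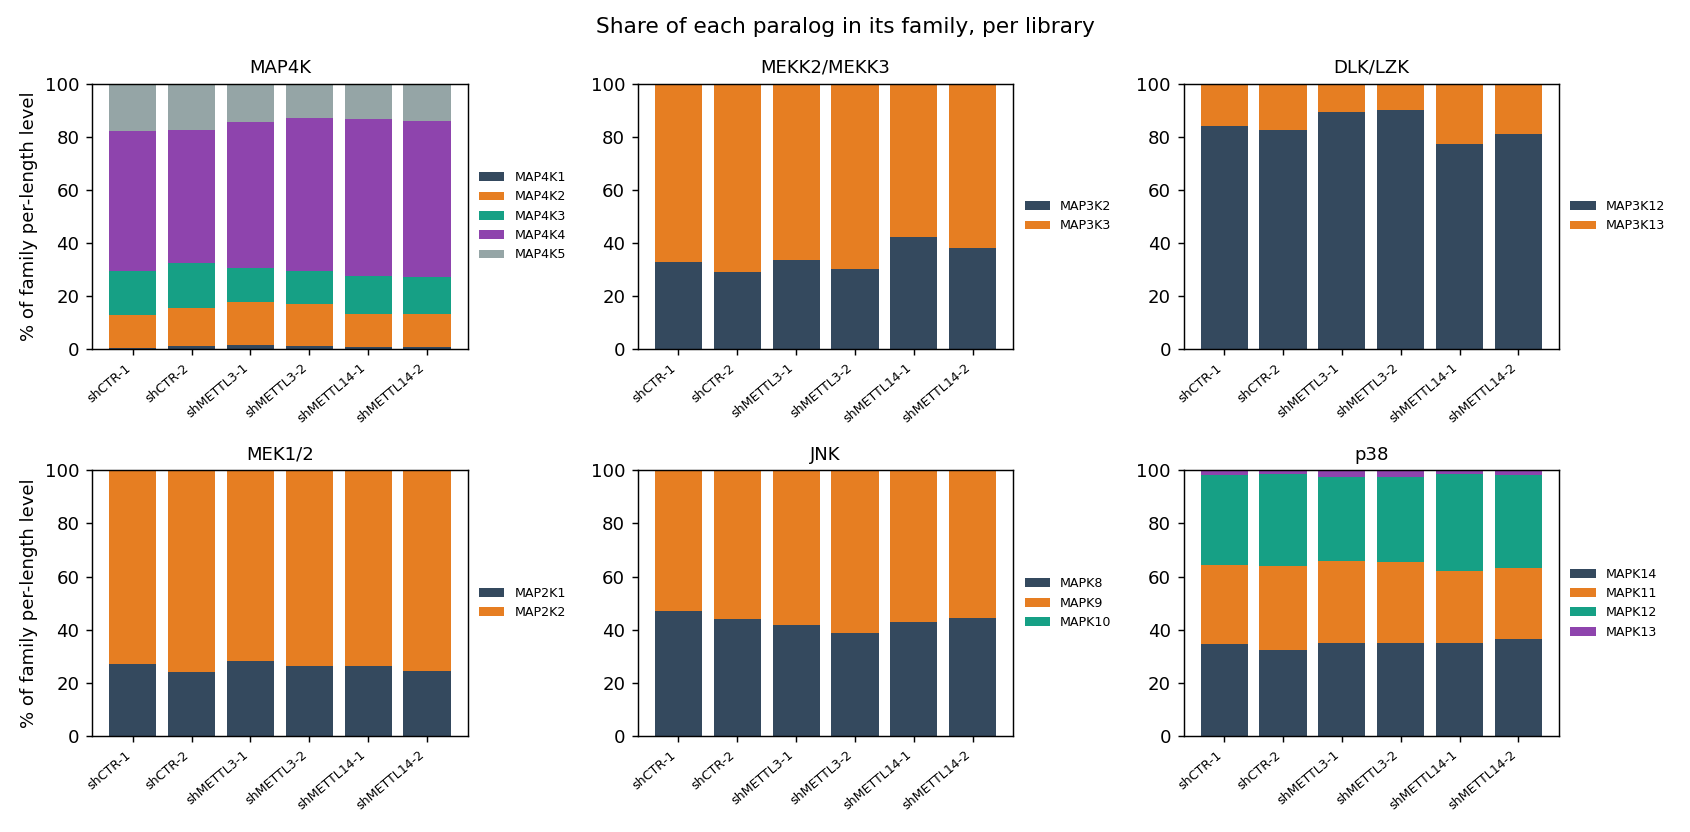
Share (%) of each paralog in the summed CPM per kilobase of exon of its family, as stacked bars for each of the 6 libraries. MAP3K3 took 67.3% and 71.2% of the MEKK2/MEKK3 sum in shCTR and 58.0% and 61.9% in shMETTL14 libraries, MAP3K13 was the smallest part of its pair in shMETTL3 libraries (10.8% and 10.1%), and the MEK1/2 shares overlapped between groups. MAPK10 is too low to be seen, and MAPK13 is the thin top part of the p38 bars.

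The MAPKAPKs, substrates of p38 and ERK that control mRNA stability and cytoskeletal proteins, had their calls in the upward direction. MAPKAPK3 was at 78.8 and 93.5 CPM in shCTR, 103 and 103 in shMETTL3 and 106 and 107 in shMETTL14 libraries. All 4 knockdown libraries lay above both shCTR libraries, which themselves differed by more than the knockdown libraries did. It rose in shMETTL3 cells (0.26, SE 0.074, adjusted p = 0.0208) and in shMETTL14 cells (0.31, SE 0.0739, adjusted p = 0.0139). Without shCTR-1 the log2 fold changes were 0.14 (adjusted p = 0.193) and 0.19 (adjusted p = 0.11), and both calls were also lost without either library of the knockdown itself.
MAPKAPK2 (MK2, the main p38 effector on cytokine mRNAs) was at 89.3 and 98.7 CPM in shCTR, 101 and 109 in shMETTL3 and 109 and 112 in shMETTL14 libraries, again higher in every knockdown library. It rose in shMETTL14 cells (0.24, SE 0.0694, adjusted p = 0.0469), a call lost in 8 of 13 alternatives, and was at 0.16 in shMETTL3 cells (adjusted p = 0.123). MAPKAPK5, a more distant relative, was at -0.14 in both (adjusted p = 0.167 and 0.25). In shMETTL3 against shMETTL14, edgeR called 0 of 3, against 12.1% of all genes. DESeq2 called 0, and 0 had an unadjusted p under 0.05.

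Scaffolds and adaptors hold the tiers together and were followed as a list of 26 genes, of which 24 were tested. In shMETTL3 cells 6 were higher and 2 lower. MAPK8IP2 and MAPK8IP1, the JNK scaffolds JIP2 and JIP1, rose by 1.68 (SE 0.3, adjusted p = 0.000657) and 0.63 (SE 0.142, adjusted p = 0.00433) on the log2 scale. MAPK8IP2 had 14 to 63 reads per library, at 1.01 and 0.731 CPM in shCTR, 3.21 and 2.44 in shMETTL3 and 1.37 and 1.48 in shMETTL14 libraries. SH3RF1 (POSH, a scaffold of the JNK cascade) rose by 1.45 (SE 0.284, adjusted p = 0.00153), at 1.11 and 0.888 CPM in shCTR and 2.90 and 2.59 in shMETTL3 libraries. CCM2, an adaptor that binds MAP3K3, rose by 0.38 (SE 0.0726, adjusted p = 0.00139). The 2 lower genes, named after their values were seen, were PEBP1 (RKIP, an inhibitor of RAF signaling; -0.31, adjusted p = 0.00171) and SPAG9 (the JNK scaffold JIP4; -0.21, adjusted p = 0.0387). The SPAG9 call was lost in 8 of 13 alternatives, with -0.11 without shCTR-1 (adjusted p = 0.269), and the PEBP1 call was lost without shMETTL3-1 (adjusted p = 0.0577). MAPK8IP1 was no longer called without shCTR-1 or without shMETTL3-2 (adjusted p at most 0.0926).
In shMETTL14 cells 3 of the 24 were higher and 0 lower, namely ARRB1 (0.31, adjusted p = 0.0184), TAB2 (0.26, adjusted p = 0.0403), an adaptor of TAK1, and FLNA (0.21, adjusted p = 0.0307). These calls were lost in 4, 8 and 7 of 13 alternatives, and TAB2 was at 0.17 without shCTR-2 (adjusted p = 0.156). In shMETTL3 against shMETTL14, 5 were higher and 3 lower, with SH3RF1 at 1.19, MAPK8IP2 at 0.98, MAPK8IP1 at 0.60 and MAPKBP1 at -0.48. These counts, 8, 3 and 8 of 24, stand beside the 16.5%, 6.69% and 12.1% of all genes called. The median log2 fold changes of the list were 0.04, 0.04 and -0.02.

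Kinases that act after the MAPKs outside the MAPKAPK family, 6 RPS6KA genes (RSK and MSK) and 2 MKNK genes, were listed as 8 genes, of which 6 were tested. MKNK2 (MNK2, which phosphorylates the translation factor eIF4E) was the 1 called of 6 (16.7%) in shMETTL3 cells, a share near the 16.5% of all genes. Its level was 215 and 229 CPM in shCTR, 285 and 302 in shMETTL3 and 226 and 227 in shMETTL14 libraries. It rose in shMETTL3 cells by 0.40 against shCTR (SE 0.0604, adjusted p = 0.000133) and by 0.37 against shMETTL14 (adjusted p = 0.00026). In shMETTL14 cells edgeR called 0 of 6, against 6.69% of all genes. DESeq2 called 0, and 1 had an unadjusted p under 0.05.

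The changes in shMETTL3 cells went with the GC content of the transcripts. Across the 42 members, which are not independent replicates and share libraries, the log2 fold change in shMETTL3 cells had a Pearson r of 0.487 and a Spearman rho of 0.468 with the GC content of the longest transcript, against an r of 0.197 over 16662 tested genes. All 7 members called higher had a GC content of at least 50%, and all 4 called lower were under 50%, with median log2 fold changes of 0.16 for the 23 members at or above 50% and -0.15 for the 19 below. How the calls over all genes split at 50% was not counted, so these counts only describe the members. In shMETTL14 cells r was 0.299 (rho 0.364), and of the calls 4 higher and 2 lower were at or above 50%. The 2 shCTR libraries also differed along GC, with an r of 0.431 over the members and 0.24 over all genes for the ratio of shCTR-2 to shCTR-1. The fit was repeated with each library's smooth trend on GC content and length removed together. This step also takes out any knockdown effect that runs along GC content or length, and the cause was not tested. Then 8 of the 11 calls remained, MAP4K2, MAP3K6 and MAP3K11 were lost (adjusted p 0.155 to 0.195), and MAP3K4, MAP2K2, MAPK11, MAPK12 and MAPKAPK5 were added. The log2 fold changes that shrank by more than 1.5 times among the calls named here were MAP3K10 (0.33), MAP3K6 (0.20), MAP4K2 (0.15), MAP3K11 (0.13) and, outside the members, MKNK2 in shMETTL3 cells (0.24) and FLNA in shMETTL14 cells (0.12, no longer called).

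**Figure D5:**
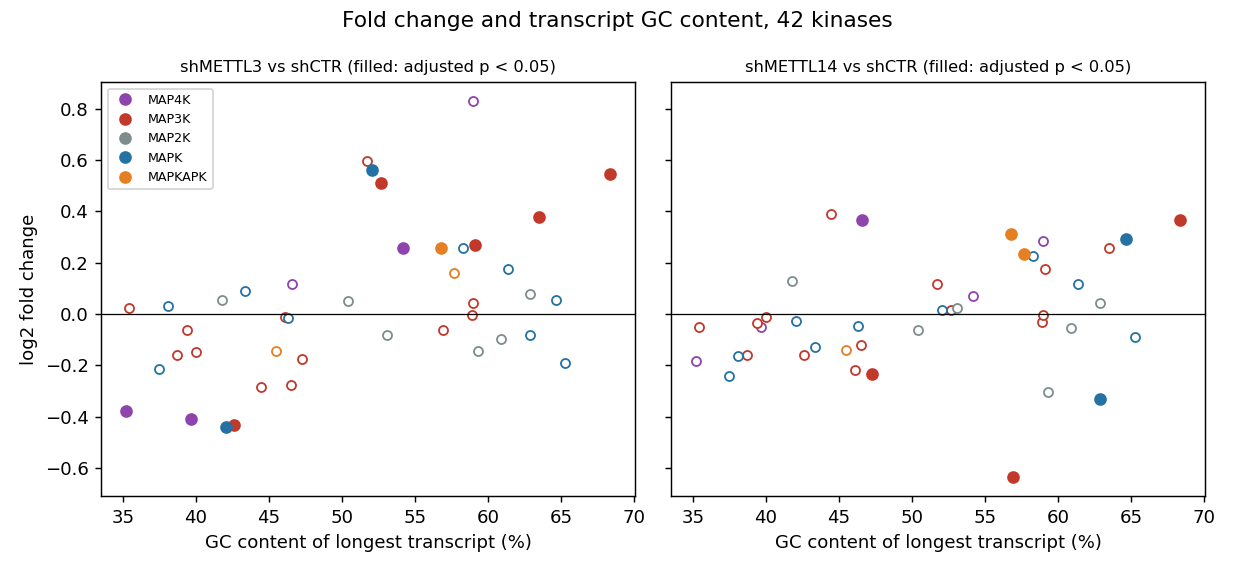
Log2 fold change against the GC content (%) of the longest transcript for the 42 tested kinases, coloured by tier, in shMETTL3 and shMETTL14 cells against shCTR. Filled points have an adjusted p under 0.05. In shMETTL3 cells the 7 filled points above 0 lie at 50% GC or more and the 4 below 0 at less (r = 0.487), while in shMETTL14 cells 1 filled point above 0 lies under 50% and 2 below 0 lie above it.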

How the data were processed

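RNA-seq libraries of K562 shCTR, shMETTL3 and shMETTL14 cells (2 each) were grouped by the submitters' titles. Counts were deposited by the authors as whole-number reads per gene, not normalized. Poly(A) mRNA was captured with oligo(dT) beads before sequencing, and the submitters' processing notes name HTSeq 0.6.1 and hg38. The counting strand and aligner are not given in the sources used here.

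Counts were tested in R 4.3.3 with edgeR 4.0.16 (minimum count 10, TMM scaling, quasi-likelihood test, a single fit across the 6 libraries, Benjamini-Hochberg adjustment over 17686 genes, threshold 0.05). CPM values are TMM-scaled, and intervals are 95%. After such scaling a change of all mRNA in a cell cannot be seen. Lengths, GC content, coordinates and sequences came from GENCODE release 29. The edgeR fit for shMETTL3 against shCTR was tried on 3 simulated data sets, and the other steps were not. In each, 200 genes with a mean count of at least 50 were changed. The fit called 97.3% of the 2-fold and 61.4% of the 1.3-fold changes, and 3.26% of its calls were false. A change of 1.3-fold can therefore be missed.

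The members and lists were chosen with earlier results of these data known. Per-library values are given for members called in any comparison, MAPK3, MAPK14 and the highest member of each tier per kilobase of exon, and for some of the at most 4 genes named from the other lists per comparison. MAPK8 is given as well, chosen after its values were seen. Alternatives were DESeq2 1.42.0, other scalings, no filter, fewer groups, a replicate block, removal of GC and length trends (mgcv 1.9.3) and leaving out each library. Families hold only the listed members.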

Additional observations from a re-analysis of the deposited data

Results flagged for a closer look

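Results were looked at again where every library of one knockdown lay on one side of shCTR and every library of the other on the opposite side, and the direct test between the knockdowns passed the threshold. This held for MAP3K13 (log2 difference -0.67 between shMETTL3 and shMETTL14) and for MAPK9 (log2 difference 0.22). MAP3K13 had 57 and 57 reads in shMETTL3, 61 and 75 in shCTR and 93 and 87 in shMETTL14 libraries. MAPK9 had 1227 and 1358 reads in shMETTL3, 1193 and 1190 in shCTR and 1070 and 1128 in shMETTL14 libraries. DESeq2 called neither difference, and neither knockdown alone differed from shCTR by edgeR's test for these genes.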

How the results depend on the processing

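Of the 28 calls among members, 7 held in all 13 alternatives: MAP3K1, MAP3K10 and NLK in shMETTL3 cells, MAP4K4 and MAP3K3 in shMETTL14 cells, and MAP3K3 and NLK between the knockdowns. No called value changed sign. Members called in shMETTL3 against shCTR numbered 7 without the filter on low counts and 3 to 16 with each library left out, where a group left with 1 library is assumed to vary like the others. In shMETTL14 against shCTR they numbered 3 without the filter, 3 with DESeq2, 5 in a fit on the groups compared and 2 to 10 with each library left out. In shMETTL3 against shMETTL14 they numbered 5 without the filter, 4 with DESeq2 and 2 to 12 with each library left out. Without the filter 37080 genes were tested, and over all genes DESeq2 called 1881, 763 and 1327 in the 3 comparisons against 2912, 1184 and 2148.

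Scaffold genes called with each library left out numbered 4 to 10, 0 to 4 and 2 to 10, and in shMETTL14 cells 0 without the filter and 1 on the groups compared. Between the knockdowns DESeq2 called 5 of them. Downstream kinases called numbered 1 to 2, 0 to 1 and 1 with each library left out, and 2 in shMETTL3 cells with library size alone. That scaling moved the median of all genes to 0.06 in shMETTL3 cells, with 2158 higher and 858 lower against 1544 and 1368.

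The replicate number as a block gave 12, 8 and 9 called members. The numbers did not pair the samples, with correlations of 0.0614, 0.00511 and -0.02 between deviations of same-numbered libraries. The block added MAPK12 in shMETTL3 cells and changed no other member's call.

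Small uncalled values changed sign. With the GC and length trend removed, MAPK3 was at -0.019 and ARAF at -0.029 between the knockdowns, and NLK at 0.00536 in shMETTL14 cells. With library size alone, MAPK14 was at 0.040 and ARAF at 0.050 in shMETTL3 cells. With each library left out, MAP2K2 ran from -0.21 to 0.019, -0.17 to 0.064 and -0.10 to 0.00997 in the 3 comparisons, NLK in shMETTL14 cells from -0.090 to 0.028, and ARAF from -0.053 to 0.042, -0.090 to 0.020 and -0.028 to 0.085. The cause was not tested. Per length of the longest transcript, most shares within families shifted by more than 1 SD, for example MAP2K2 from 74.6% to 82.7% in shCTR cells. Counts under about 100 reads, as for MAP3K9, MAP4K1 and MAP3K13, limit precision.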
